A study of Drosophila melanogaster with 6 samples.

Results

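The genes described here are 10 hemocyte genes of Drosophila, chosen by name from the deposited expression table of S2 cells, which holds 14012 genes. They are serpent (srp, CG3992) and u-shaped (ush, CG2762), which encode transcription factors of the blood lineage, the uptake receptors croquemort (crq, CG4280), NimC1 (CG8942), eater (CG6124) and Sr-CI (CG4099), the hemocyte markers Hemolectin (Hml, CG7002) and Hemese (He, CG31770), the receptor tyrosine kinase Pvr (CG8222), and Dscam1 (CG17800). No measured value entered the rule that chose them, but earlier results of these data were known. Each gene was found by its CG number, and the values of its transcript rows (76 rows for the 10 genes) were summed.

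Hemocytes are the blood cells of the fly. Most of them are plasmatocytes, macrophage-like cells that carry scavenger and Nimrod family receptors on their surface and take up bacteria and dying cells. Crystal cells, which make the prophenoloxidases of melanization, and lamellocytes, large flat cells that encapsulate parasites, are the other types. S2 cells are an established line from late embryos with plasmatocyte-like properties, including phagocytosis.

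The study examined the roles of PARP1 and of its enzymatic activity, PARylation, the attachment of poly(ADP-ribose) to proteins. RNA-seq was made from 2 untreated control libraries, 2 libraries of cells given double-stranded RNA against PARP1 (PARP1 KD), and 2 libraries of cells given the PARylation inhibitor PJ34. The controls received no unrelated double-stranded RNA. The labels give 100 and 500 for the amounts of double-stranded RNA, in ng in one field and in µg in another, and 10 and 0.3 µM for PJ34. The table does not tie a treated library to a dose, so libraries are numbered as in the table and the 2 of a treatment were used as replicates. Levels are in FPKM, fragment numbers divided by transcript length and by the fragments mapped in that library, so that levels can be compared between genes. Changes are differences of log2(FPKM + 1), a scale on which genes of low level appear to change less than they do.

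Libraries had a similar depth, between 0.885 and 1.10 times that of control 1, as estimated from the lowest values of genes with a single transcript. Their composition differed. The 10 genes of highest FPKM in each library held 11.6% and 21.4% of its summed FPKM in the controls, 15.8% and 15.6% in PARP1 KD. With PJ34 they held 26.9% and 38.1%. The part of this in the differences below was not tested. Parp1 had 51.6 and 29.9 FPKM in the controls, 16.7 and 10.2 in PARP1 KD, and 39.3 and 50.2 with PJ34. The mean was 66.9% lower in PARP1 KD than in the controls. Libraries of one group were not equally alike. Between the controls 24.5% of the 7308 genes tested differed by at least 2-fold on the log2(FPKM + 1) scale, between the PJ34 libraries 57.0%, and between the PARP1 KD libraries 0.164%. The tests below take 1 spread per gene from all 3 groups. Those of PARP1 KD against the controls therefore also carry the spread between the PJ34 libraries. PJ34 library 2 had low values for transcripts of 1000 bases or longer. The median log2(FPKM + 1) of genes whose transcripts are 4500 bases or longer was 3.78 in control 1, 2.71 in control 2, 2.67 and 2.41 in PARP1 KD, 2.71 in PJ34 library 1 and 0.90 in PJ34 library 2. From 2500 to 4500 bases it was 4.36 and 3.58 in the controls, 3.55 and 3.23 in PARP1 KD, and 3.42 and 1.57 with PJ34. From 1000 to 2500 bases it was 4.59 and 4.31, then 4.30 and 3.97, then 4.05 and 2.88. For genes under 1000 bases it was between 5.15 and 5.49 in all 6 libraries. The part of this length trend in the results below was tested only by correcting each library for it. That correction also removes the overall level of each library.

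The 10 genes spanned a wide range of levels. In the controls Pvr and crq were the highest, with a mean of 179 FPKM ± 52.9 (SD, n = 2) and 122 ± 16.4 (n = 2), and both lay between the 94.2 and 97.3 percentiles of all genes. Next came srp, Dscam1 and ush, with control means of 58.5 ± 18.7, 33.4 ± 5.24 and 29.7 ± 21.1 FPKM (SD, n = 2 each). Sr-CI, Hml and NimC1 were the lowest, each at 2.5 FPKM or below in both controls. He and eater could not be given a place in that order, because the controls differed 54.9-fold in He and 5.44-fold in eater.

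**Figure D1:**
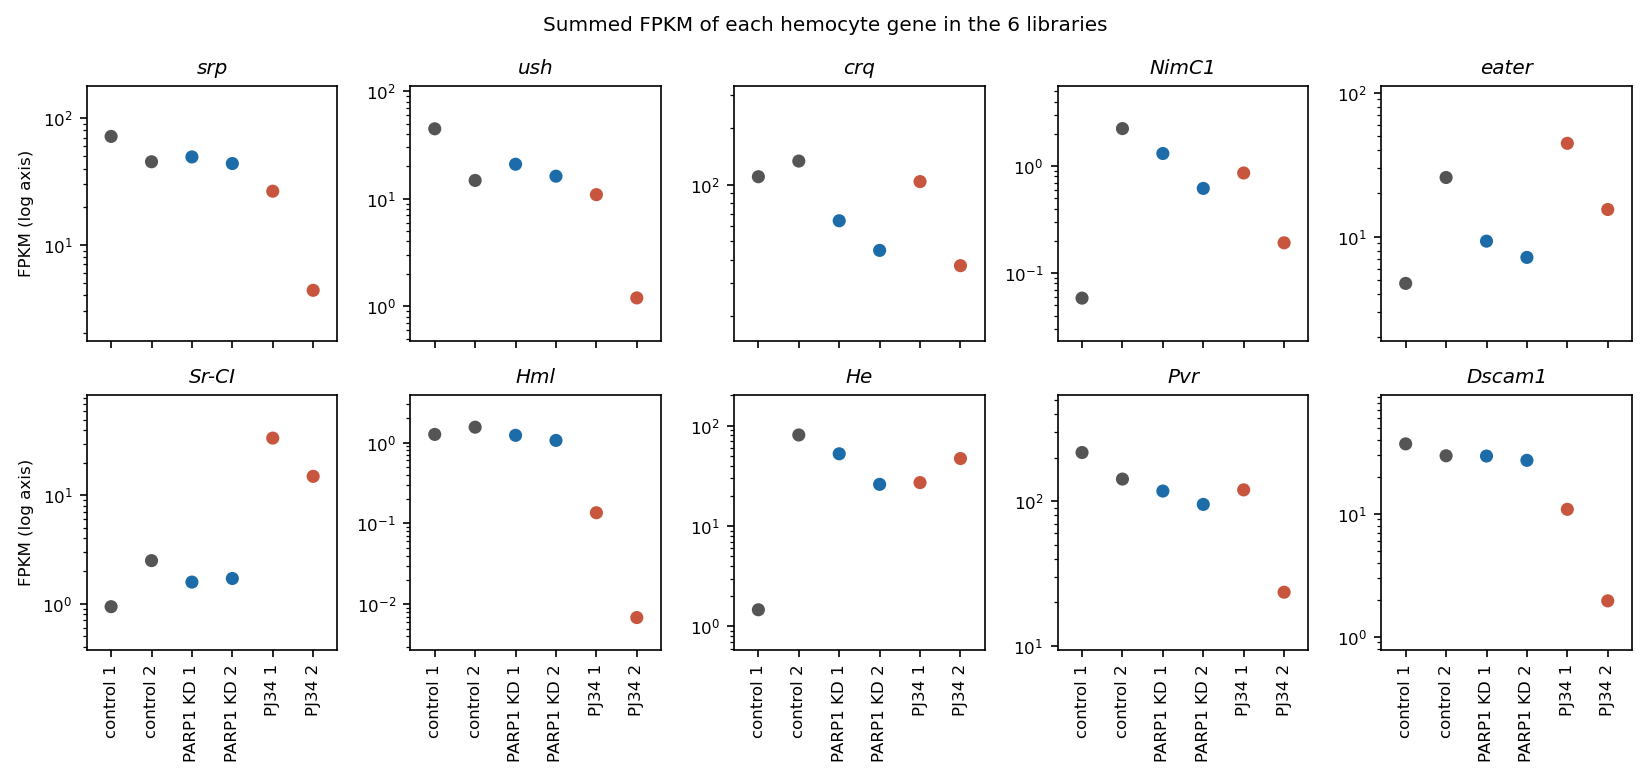
FPKM of each of the 10 genes (vertical log axis, a separate range in each panel) in the 6 libraries, 1 point per library, with controls in grey, PARP1 KD in blue and PJ34 in red. Sr-CI is above both controls in both PJ34 libraries (33.9 and 15.0 against 0.937 and 2.5 FPKM), srp, ush and Dscam1 are lowest in PJ34 library 2, and control 1 has the lowest He, NimC1, eater and Sr-CI.

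The transcription factors srp and ush were lower with PJ34 than in the controls, without passing the threshold. serpent encodes the GATA factor needed for hemocytes to form, and its locus (dm3, 3R, 11811922 to 11829807) gave 71.7 and 45.2 FPKM in the controls, 49.4 and 43.8 in PARP1 KD, and 26.5 and 4.37 with PJ34. Both PJ34 libraries lay below both controls, and the PARP1 KD libraries were close to control 2. The log2 difference was -2.25 (SE 0.73, limma adjusted p = 0.130) for PJ34 and -0.29 (SE 0.73, adjusted p = 0.9996) for PARP1 KD. The latter was positive, at 0.10 with each library centred on its median and 0.31 after the length correction.

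u-shaped encodes a Friend of GATA protein that binds Serpent and modulates its activity. At 2L, 523466 to 540541, it had 44.7 and 14.8 FPKM in the controls, 20.9 and 16.2 in PARP1 KD, and 10.9 and 1.19 with PJ34. The PARP1 KD values lay between those of the controls, and both PJ34 values lay below all the others. The PJ34 difference was -2.39 (SE 0.87, limma adjusted p = 0.146). In PARP1 KD it was -0.47 (SE 0.87, adjusted p = 0.9996), and 0.30 against control 2 alone.

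The uptake receptors did not move together. croquemort encodes a CD36 family receptor for apoptotic cells and bacteria (2L, 448253 to 453023, overlapping the gene expanded). It had 110.0 and 133 FPKM in the controls, 64.2 and 44.7 in PARP1 KD, and 104 and 37.1 with PJ34. All 4 treated libraries lay below both controls. The log2 difference was -1.16 (SE 0.54, limma adjusted p = 0.9996) for PARP1 KD and -0.95 (SE 0.54, adjusted p = 0.200) for PJ34. The PJ34 difference was 0.19 with median centring and 0.15 after the length correction, whereas the PARP1 KD difference was negative under both.

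Sr-CI encodes a class C scavenger receptor that binds bacteria (2L, 4121720 to 4124002). It had 0.937 and 2.5 FPKM in the controls, 1.58 and 1.71 in PARP1 KD, and 33.9 and 15.0 with PJ34. The lower PJ34 library was 6.01-fold above the higher control, and in fragments the PJ34 libraries held about 1932 and 713 against 48.6 and 131 in the controls. The PJ34 difference from the controls was 3.18 (SE 0.66) and missed the threshold (limma adjusted p = 0.0728). PARP1 KD was 3.16 below PJ34 on the same scale (log2 difference -3.16, SE 0.66, adjusted p = 0.0401), the only one of the tests on these genes that passed. Against the controls, Sr-CI differed in PARP1 KD by 0.02 (SE 0.66, adjusted p = 0.9996).

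eater encodes a Nimrod family receptor with many EGF-like repeats that binds bacteria (3R, 22921645 to 22925401). It had 4.74 and 25.8 FPKM in the controls, 9.31 and 7.18 in PARP1 KD, and 44.5 and 15.4 with PJ34. The PARP1 KD values lay between those of the controls, PJ34 library 1 was above both controls and PJ34 library 2 between them. The PJ34 difference of 1.14 (SE 0.83, limma adjusted p = 0.283) was 2.25 against control 1 alone and 0.03 against control 2 alone. PARP1 KD differed from PJ34 by -1.57 (SE 0.83), with no overlap between these 2 groups and no call.

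NimC1 encodes a plasmatocyte surface receptor for bacteria, the antigen of a widely used plasmatocyte antibody (2L, 13974116 to 13976753). It had 0.0583 and 2.24 FPKM in the controls, 1.31 and 0.618 in PARP1 KD, and 0.861 and 0.192 with PJ34. Control 2 was the highest library and control 1 the lowest, where the value stands for about 2.91 fragments. Its mean over the 6 libraries, 0.880 FPKM, was below the minimum of 1 FPKM for testing.

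The secreted and surface markers differed from each other. Hemolectin, a large secreted clotting protein whose gene lies at 3L, 13839153 to 13853113 and overlaps CG8745, had 1.26 and 1.55 FPKM in the controls, 1.23 and 1.06 in PARP1 KD, and 0.136 and 0.00685 with PJ34. Both PJ34 libraries were below the other 4, at about 44.4 and 1.87 fragments against 280 to 467. Hml too was below the minimum for testing (mean 0.874 FPKM). Its transcripts have a median length of 11754.5 bases, the longest of the 10 genes.

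Hemese, a glycosylated transmembrane protein of the hemocyte surface, has the shortest transcripts of the 10, with a median of 613 bases in BDGP6 and 673 bases for the single row of the table (2L, 13972093 to 13972947). He had 1.47 and 80.5 FPKM in the controls, 52.3 and 26.0 in PARP1 KD, and 27.0 and 47.0 with PJ34. Control 1 stood apart from the other 5 libraries, which held between 26.0 and 80.5 FPKM. The differences from both controls were 1.42 (SE 1.25, limma adjusted p = 0.9996) for PARP1 KD and 1.37 (SE 1.25, adjusted p = 0.382) for PJ34. With 1 control alone the spread comes from the other groups, and that control is assumed to vary as they do. Against control 1 alone they were 3.94 (adjusted p = 0.0324) and 3.89 (adjusted p = 0.0168). Against control 2 alone they were -1.10 (adjusted p = 1) and -1.15 (adjusted p = 0.612). A direction for He therefore depended on which control it was set against.

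Pvr encodes the receptor for the PDGF and VEGF related factors Pvf1, Pvf2 and Pvf3, and is needed for hemocyte survival and migration. Its locus (2L, 8221118 to 8239859) gave 217 and 142 FPKM in the controls, 117 and 94.9 in PARP1 KD, and 120 and 23.4 with PJ34. Both treatments lay below both controls. The log2 differences were -0.73 (SE 0.67, limma adjusted p = 0.9996) for PARP1 KD and -1.70 (SE 0.67, adjusted p = 0.154) for PJ34.

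Dscam1 encodes an immunoglobulin superfamily receptor with a very large number of possible splice forms, known for neuronal wiring and present in hemocytes, where it binds bacteria. Its locus (2R, 3207058 to 3269374) is represented by 59 transcript rows, whose sum was 37.1 and 29.7 FPKM in the controls, 29.6 and 27.3 in PARP1 KD, and 10.9 and 1.96 with PJ34. The 2 PJ34 libraries were the lowest, while PARP1 KD library 1 was just below control 2. The differences were -2.53 (SE 0.71, limma adjusted p = 0.112) for PJ34 and -0.22 (SE 0.71, adjusted p = 0.9996) for PARP1 KD. The latter was positive with quantile normalization (0.08), with median centring (0.17) and after the length correction (0.52). The number of Dscam1 rows at 0.1 FPKM or more was 31 and 19 in the controls, 20 and 18 in PARP1 KD, and 23 and 2 with PJ34. With a sum of 1.96 FPKM over 59 rows in PJ34 library 2, this count cannot tell fewer splice forms from a lower level.

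Over the 10 genes, 8 passed the minimum for testing and 2, NimC1 and Hml, did not. Against the controls, PARP1 KD gave 0 calls among the 8 (0% of all genes tested by limma), and 0 of 8 also at an unadjusted p of at most 0.05 (2.86% of all genes). None of the 8 was higher in both PARP1 KD libraries than in both controls (10.5% of all genes), and 3 were lower in both, crq, Pvr and Dscam1 (34.9% of all genes). The median log2 difference of the 8 was -0.36, beside -0.28 for all genes tested. The SE and adjusted p of these tests include the spread between the PJ34 libraries. With only the 4 libraries compared, the SE was 0.38 for crq, 0.37 for Pvr and 0.42 for Dscam1. The limma adjusted p values were then 0.144, 0.407 and 0.871, so values near 1 are not evidence of no change.

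PJ34 against the controls also gave 0 calls among the 8, where 0.643% of all genes passed, 0.493% higher and 0.151% lower. At an unadjusted p of at most 0.05 there were 5 of 8, srp, ush, Sr-CI, Pvr and Dscam1, where 31.1% of all genes passed. With no overlap of the libraries, 1 gene was higher (Sr-CI, 13.1% of all genes) and 5 were lower (srp, ush, crq, Pvr and Dscam1, 54.1% of all genes). The median was -1.33 for the 8 and -1.08 for all genes tested. With PJ34 library 1 left out, 6 of the 8 passed, but so did 5106 of all 7308 genes, and the remaining PJ34 library was then assumed to vary like the other groups. With control 2 left out Sr-CI and He passed, and with PJ34 library 2 left out Sr-CI passed.

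The size of the PJ34 differences depended on the PJ34 library. Without PJ34 library 2 and without PJ34 library 1, the log2 difference was -1.08 and -3.43 for srp, and -1.17 and -3.61 for ush. For Dscam1 it was -1.53 and -3.53, for Pvr -0.55 and -2.85, and for crq -0.22 and -1.68. The 5 genes thus kept a negative sign with each library, with the larger difference in PJ34 library 2. For Sr-CI the values were 3.74 and 2.62, for eater 1.88 and 0.41, and for He 0.98 and 1.76.

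PARP1 KD against PJ34 gave 1 call among the 8, Sr-CI, which was lower in PARP1 KD, where 2.57% of all genes passed, 0.972% higher and 1.6% lower. At an unadjusted p of at most 0.05 there were 3 of 8 (srp, Sr-CI and Dscam1, 23.7% of all genes). With no overlap, 3 were higher in PARP1 KD (srp, ush and Dscam1, 43.8% of all genes) and 2 lower (eater and Sr-CI, 17.3% of all genes). The median was 0.51, beside 0.67 for all genes. The 2 treatments share their controls, so their differences from the controls are not independent of each other. The call of Sr-CI was lost with either PARP1 KD library left out, at adjusted p values of 0.436 and 0.438, and the log2 difference was then -3.13 and -3.19. It was also lost with a pseudocount of 0.1, all genes above 0, a mean of at least 5 FPKM, no intensity trend or transcript rows (adjusted p between 0.0534 and 0.112). Since these are libraries of bulk RNA, fewer cells with a transcript and less of it per cell cannot be told apart.

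**Figure D2:**
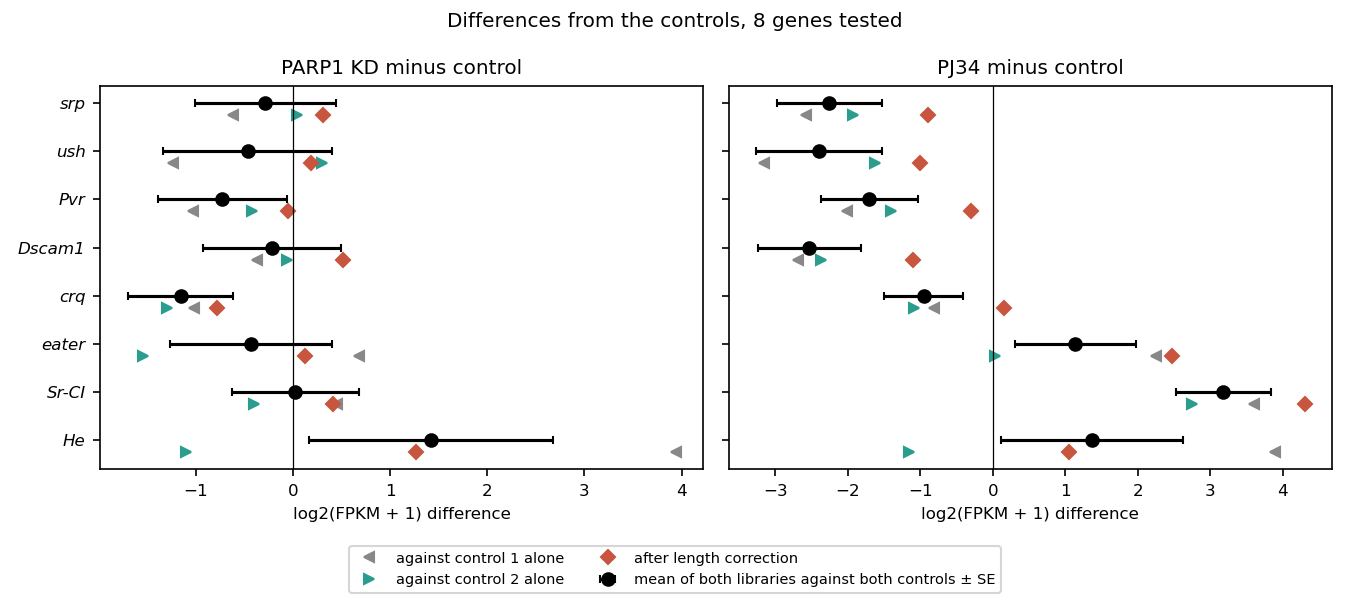
Difference in log2(FPKM + 1) from the controls (horizontal axis) for the 8 genes tested, PARP1 KD on the left and PJ34 on the right. Black points with bars are the limma estimates ± SE from 2 libraries against 2, and triangles the same difference against 1 control alone. Diamonds are the estimate after each library was corrected for transcript length and, with it, for its overall level. He lies on opposite sides of 0 against control 1 (3.94 and 3.89) and against control 2 (-1.10 and -1.15), and Sr-CI with PJ34 is above 0 in each version.

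The length correction raised the PJ34 differences of 7 of the 8 genes and lowered that of He, which went from 1.37 to 1.05. Dscam1 went from -2.53 to -1.10, srp from -2.25 to -0.89, ush from -2.39 to -0.999 and Pvr from -1.70 to -0.30. By similar amounts crq moved from -0.95 to 0.15 and eater from 1.14 to 2.48. Their median transcript lengths of 2063 and 3301 bases also lie in the range where PJ34 library 2 was low. Sr-CI, with a median transcript length of 2128.5 bases, went from 3.18 to 4.30 and passed the threshold (adjusted p = 0.00793). It also passed with quantile normalization (3.82, adjusted p = 0.00911), with median centring (4.32, adjusted p = 0.0373) and with a pseudocount of 5 (2.06, adjusted p = 0.0353). The length correction also removes the overall level of each library, as median centring does without using length. Median centring gave -1.39 for Dscam1, -1.12 for srp, -1.25 for ush, -0.56 for Pvr, 0.19 for crq, 2.28 for eater and 2.51 for He. The part of these shifts that belongs to length alone was not tested.

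The shares of the transcript rows of srp, crq and Pvr differed between the 2 controls, and for srp also between the 2 PJ34 libraries. In crq and Pvr the row with the highest share also differed between PARP1 KD and PJ34. The rows are the apportionment of fragments by the authors' software and are given as a description. For srp, row srp-RD made up 9.44% and 71.0% of the gene's FPKM in the controls, 78.5% and 76.1% in PARP1 KD, and 25.1% and 71.4% with PJ34. Row srp-RA made up 59.6% in control 1 and 47.9% in PJ34 library 1, 7.66% in PJ34 library 2, and under 1% in control 2 (0.895%) and both PARP1 KD libraries. In the newer BDGP6 annotation, srp-RD has 8 exons and begins with 2 exons that srp-RA lacks, and srp-RA and srp-RB differ in 1 exon of 218 or 173 bases.

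For crq, row crq-RA made up 81.0% and 24.6% in the controls, 11.5% and 6.29% in PARP1 KD, and 73.2% and 67.0% with PJ34. Control 1 and the PJ34 libraries were high and the other 3 low. The row's last exon has 917 bases in BDGP6, against 455 bases in crq-RB, which held the remainder.

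For Pvr, row Pvr-RA made up 81.4% and 25.1% in the controls, 0.0315% and 6.29% in PARP1 KD, and 84.9% and 94.1% with PJ34. Row Pvr-RC, whose span in the table is short (2L, 8221123 to 8229409), made up 1.53% and 64.6% in the controls, 81.2% and 77.7% in PARP1 KD, and 2.64% and 2.03% with PJ34. In absolute terms Pvr-RC had 3.33 FPKM in control 1 and 91.7 in control 2. For this gene control 1 resembled both PJ34 libraries, and control 2 was nearer to the PARP1 KD libraries.

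**Figure D3:**
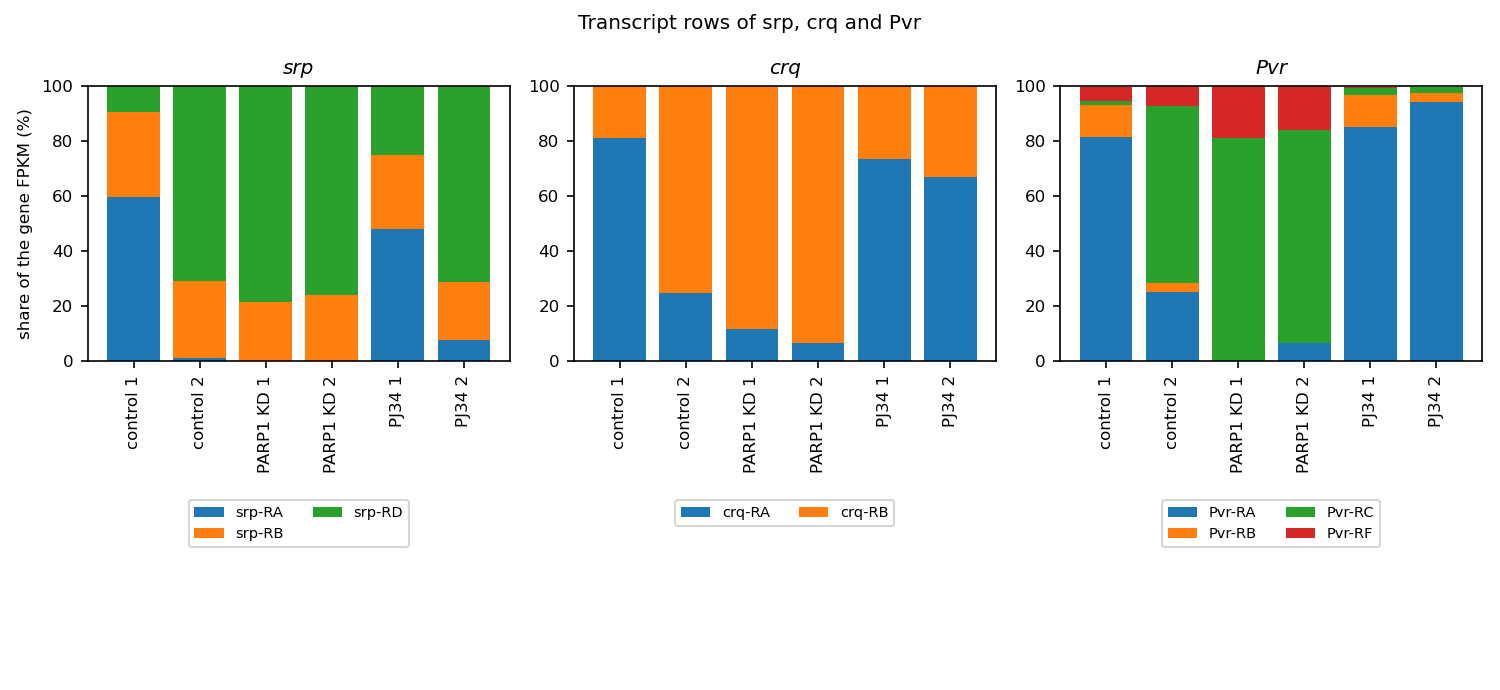
Share of each gene's summed FPKM (vertical axis, %) held by its transcript rows in the 6 libraries, for srp, crq and Pvr. Rows that reach 3% in no library are left out. The bars of control 1 and PJ34 library 1 are alike in all 3 genes, with srp-RA at 59.6% and 47.9%. Those of control 2 are nearer to PARP1 KD than to control 1, with srp-RD at 71.0%, 78.5% and 76.1%. They are not the same, since Pvr-RA is at 25.1% in control 2 and at 0.0315% and 6.29% in PARP1 KD.

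Over all genes control 1 was closely alike to PJ34 library 1 in its highest rows, and less so to PJ34 library 2. Of 2446 genes with several transcript rows, the row with the highest FPKM was the same in control 1 and PJ34 library 1 for 90.5%, in control 1 and PJ34 library 2 for 79.1%, and in both controls for 75.6%. Control 2 shared it with the PARP1 KD libraries for 87.5% and 83.4%, and with the PJ34 libraries for 76.2% and 77.4%. The labels give no batch for the libraries, and the part of this likeness in the differences from the controls was not tested beyond setting the treatments against each control alone.

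He and NimC1 are neighbours in the Nimrod cluster of chromosome arm 2L (dm3, 13957894 to 14048863), which holds most Nimrod genes of the fly. Nimrod proteins carry a characteristic EGF-like repeat, the NIM repeat, and those of the B group are predicted to be secreted while those of the C group are receptors. The region was looked at after the control values of He and NimC1 were seen. Of 11 genes in it (He, NimC1 and 9 other Nimrod genes), 7 had a mean of at least 1 FPKM, and all 7 were at least 2-fold higher in control 2 than in control 1 on the log2(FPKM + 1) scale, with a median difference of 4.26. Without He and NimC1, which prompted the choice of the region, this held for 6 of 6 genes tested, with a median of 4.14. Over all genes tested 343 of 7308 (4.69%) were.

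NimC4, also called Simu, is a receptor by which glia and hemocytes take up apoptotic cells. It had 53.7 and 1347 FPKM in the controls, 1017 and 781 in PARP1 KD, and 139 and 130 with PJ34. Its neighbour NimB3 had 0.192 and 86.1 FPKM in the controls, 40.9 and 30.5 in PARP1 KD, and 2.55 and 3.30 with PJ34. NimB2 had 1.03 and 26.5, then 15.7 and 15.2, then 1.52 and 0.501. In these 3 genes control 2 was highest, PARP1 KD next, and control 1 and the PJ34 libraries low. The order was not the same throughout the cluster. NimB4 had 0.335 and 9.74 FPKM in the controls, 4.97 and 5.06 in PARP1 KD, and 4.66 and 1.31 with PJ34, and NimB5 had 0.307 and 24.0, then 8.88 and 5.90, then 4.56 and 4.99. In both, PJ34 library 1 was well above control 1, and in He the PJ34 libraries overlapped those of PARP1 KD. Of the 8 genes in the region that are neither He nor Nimrod genes, 2 were tested, hll and bgm, and 1 of them was at least 2-fold higher in control 2. The gene bgm had 1.47 and 2.63 FPKM in the controls, 2.57 and 1.42 in PARP1 KD, and 0.246 and 0.0171 with PJ34. The gene hll had 2.25 and 45.0 FPKM in the controls, 57.6 and 55.0 in PARP1 KD, and 4.74 and 1.31 with PJ34.

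**Figure D4:**
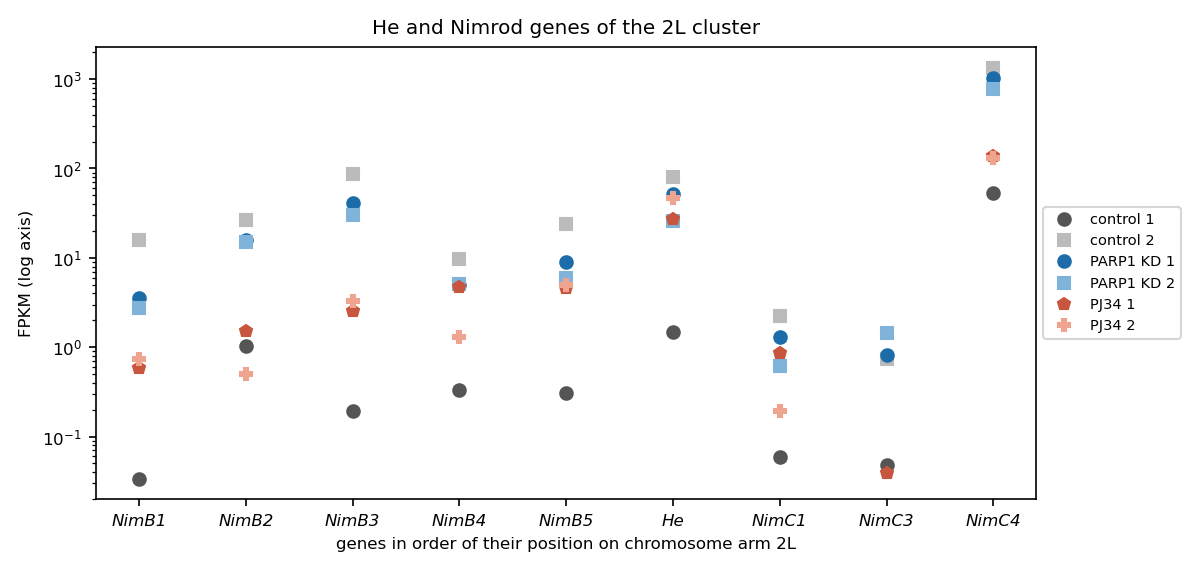
FPKM (vertical log axis) of He and 8 Nimrod genes of the 2L cluster in their order along the chromosome, 1 symbol per library. NimC3 is listed at 0 in PJ34 library 2 and has no symbol there, and NimA and NimC2 (both below 0.1 FPKM in each library) are left out. Control 1 is the lowest library for NimC4 (53.7 FPKM) and He (1.47 FPKM), and control 2 the highest for both (1347 and 80.5 FPKM).

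Of the wider Nimrod and Draper list, 7 of 10 genes were tested. None passed in any comparison, and 7 of 7 were higher in both PARP1 KD libraries than in both PJ34 libraries (43.8% of all genes), with a median of 1.58 beside 0.67 for all genes. Of these 7 genes, 6 lie in the cluster. drpr, which encodes the engulfment receptor Draper and lies outside the cluster, had 110 and 58.9 FPKM in the controls, 57.6 and 44.9 in PARP1 KD, and 23.0 and 11.6 with PJ34. Its PJ34 difference was -2.23 (SE 0.55, limma adjusted p = 0.0995). Control 1 was its highest library, unlike in the cluster.

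Among 8 other scavenger and uptake receptors, 4 were tested, and Sr-CIII, a paralog of Sr-CI, was the 1 gene called in any of the other lists. It had 0 and 0.0909 FPKM in the controls, 0.0419 and 0 in PARP1 KD, and 2.04 and 4.04 with PJ34. Its mean of 1.04 FPKM reached the minimum for testing only through the PJ34 libraries, so the call (limma adjusted p = 0.0324 for PARP1 KD against PJ34) is given as a description and supports nothing. It was lost with either PARP1 KD library left out (adjusted p = 0.345 and 0.427), and with quantile normalization, median centring, all genes above 0, no intensity trend or transcript rows (adjusted p between 0.0670 and 0.112). With a minimum of 5 FPKM the gene was not tested. The remaining class C paralogs, Sr-CII and Sr-CIV, were at most 0.0941 FPKM with PJ34, so of the 4 class C genes only Sr-CI and Sr-CIII were above the controls in both PJ34 libraries. Reads of paralogs can be split by the counting, so levels of Sr-CIII are uncertain. The CD36 family receptor pes, known for mycobacterial uptake, had 44.1 and 38.5 FPKM in the controls, 21.5 and 13.1 in PARP1 KD, and 24.5 and 5.73 with PJ34. PGRP-LC, a receptor for bacterial peptidoglycan, had 20.5 and 24.5, then 29.5 and 26.4, then 25.8 and 5.68.

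The ligands of Pvr were present in all libraries. Pvf2 had 204 and 214 FPKM in the controls, 174 and 138 in PARP1 KD, and 200 and 143 with PJ34. Both treatments were below both controls, with differences of -0.43 (SE 0.41, limma adjusted p = 0.9996) and -0.31 (SE 0.41, adjusted p = 0.548). Pvf1 had 33.4 and 183 FPKM in the controls, 95.3 and 93.7 in PARP1 KD, and 42.6 and 15.6 with PJ34, again with the controls at a distance from each other. None of the 3 ligands was called. The paralogs of Dscam1 were near 0, with a sum of Dscam2, Dscam3 and Dscam4 between 0.0118 and 0.0545 FPKM.

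Engulfment signalling downstream of the receptors was tested in full, 11 of 11 genes, with 0 calls. All 11 had a negative PARP1 KD difference (median -0.74, beside -0.28 for all genes) and 7 were lower in both libraries than in both controls (34.9% of all genes). With PJ34 10 of 11 were negative (median -1.49, beside -1.08) and 7 lower without overlap (54.1% of all genes). As the negative medians of all genes show, most genes tested also had negative differences in both treatments. Cdc42, a small GTPase of actin remodelling, had 228 and 92.4 FPKM in the controls, 87.6 and 50.9 in PARP1 KD, and 104 and 14.3 with PJ34. Rab5, a GTPase of early endosomes and phagosomes, had 131 and 156, then 99.5 and 64.6, then 83.6 and 54.6. Crk, an adaptor protein, was the exception with PJ34 and is named after its values were seen. It had 45.0 and 65.0, then 43.0 and 33.0, then 107 and 133 FPKM.

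Thioester proteins, secreted proteins that can mark microbes for uptake, gave 0 calls among 4 tested. Tep2 had 129 and 70.9 FPKM in the controls, 92.1 and 80.0 in PARP1 KD, and 129 and 14.2 with PJ34. Tep4 had 56.9 and 21.2, then 22.8 and 19.2, then 14.2 and 4.24. The 2 PJ34 libraries differed widely in both. Tep1 was the exception with PJ34 and is named after its values were seen. It had 0.134 and 0.264 FPKM in the controls, 0.147 and 0.112 in PARP1 KD, and 10.4 and 2.07 with PJ34. Its mean of 2.20 FPKM reached the minimum for testing only through the PJ34 libraries, so these values are a description.

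Of 12 other transcription factors of the blood lineage, 6 were tested and 0 called, all 6 with negative differences in both treatments. The median was -0.83 in PARP1 KD, beside -0.28 for all genes, and -1.19 with PJ34, beside -1.08. Most genes tested were thus also negative in both treatments. Lower in both libraries than in both controls were 4 in PARP1 KD (34.9% of all genes) and 3 with PJ34 (54.1% of all genes). The GATA factor pnr had 67.5 and 37.3 FPKM in the controls, 35.5 and 27.2 in PARP1 KD, and 36.6 and 9.84 with PJ34. Mlf, which stabilizes the crystal cell factor Lozenge, had 95.1 and 107, then 65.2 and 38.7, then 97.3 and 42.6.

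The labelled cell type was checked against its markers. Of 3 other plasmatocyte genes, the collagen IV genes were high and Pxn varied between libraries. Col4a1, a collagen IV chain made by hemocytes, had 633 and 808 FPKM in the controls, 729 and 637 in PARP1 KD, and 376 and 39.0 with PJ34. The second chain, vkg, had 397 and 314, then 360 and 335, then 230 and 16.1. Pxn, the matrix protein peroxidasin, had 4.09 and 102 FPKM in the controls, 94.7 and 75.2 in PARP1 KD, and 4.97 and 0.610 with PJ34, so control 1 was again as low as the PJ34 libraries. Of these 3 genes, 0 were called and all 3 were higher in both PARP1 KD libraries than in both PJ34 libraries (43.8% of all genes). NimC1 and Hml, which define plasmatocytes in the animal, were at 2.24 FPKM or below in all libraries.

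Markers of crystal cells and of other tissues were low beside the collagen IV genes, and those of lamellocytes were mixed. They were not all low beside NimC1 and Hml, since PPO1 was above both in every library. The 4 crystal cell markers summed to between 0.582 and 8.81 FPKM, nearly all of it PPO1 (0.568 to 8.55 FPKM), and the defining factor lz was at most 0.0757 FPKM. PPO2, below the minimum for testing, had 0.0344 and 0.152 FPKM in the controls, 0.517 and 0.450 in PARP1 KD, and 0.0156 and 0 with PJ34. The 5 lamellocyte markers summed to between 14.3 and 205 FPKM. Most of this was mys (6.43 to 138 FPKM) and cher (5.24 to 78.0 FPKM), which other hemocytes also express. PPO3, the lamellocyte prophenoloxidase, had 12.1 and 7.98 FPKM in the controls, 7.90 and 6.12 in PARP1 KD, and 7.48 and 1.29 with PJ34, above NimC1 and Hml in every library. ItgaPS4 was at most 1.18 FPKM and atilla, which defines the type, at most 0.902 FPKM. The 8 markers of other tissues summed to between 0.571 and 4.03 FPKM, mainly the neuronal gene elav, which had 3.79 and 0.897 in the controls, 0.326 and 0.470 in PARP1 KD, and 3.37 and 1.07 with PJ34. In control 1 elav was above He (1.47 FPKM), Hml (1.26), Sr-CI (0.937) and NimC1 (0.0583). In control 2 and both PARP1 KD libraries it was below all of these. Yp1 and the remaining 6 were at most 0.120 FPKM in each library.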

How the data were processed

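RNA was sequenced by the authors from 6 S2 cell libraries as paired ends. Per the methods and the submitters' processing notes, reads were aligned with TopHat2 2.0.10 (Bowtie2 2.1.0.0) to dm3, and levels estimated with Cufflinks 2.1.1. The deposited values are FPKM, scaled by the authors to transcript length and mapped fragments, in 21081 transcript rows. All value columns matched a group (0 others were left out). Rows were summed per CG number, and the 7308 genes whose mean reached 1 FPKM were fitted in limma 3.58.1 (R 4.3.3) on log2(FPKM + 1). The fit used group means, 1 spread per gene shared by the 3 groups, and an intensity trend. The p-values were adjusted over these genes after Benjamini and Hochberg (threshold 0.05). The fit was also run on simulated data with the same spread in all groups. The groups here differ in spread, so that run cannot tell how the fit behaves on them.

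The table holds no counts, so no count test was used. Depth and fragments per gene were estimated from the smallest steps of low values, and cover counting error only. An exact permutation test of 2 against 2 libraries cannot go below p = 0.333, so none was made. Treated replicates carry different doses, so p-values measure the spread between these libraries.

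The genes and the 11 comparison lists (71 other genes matched) were chosen with earlier results of these data known. Named were the 10 genes and, per list, genes called in any comparison and the 2 with the highest mean FPKM. The genes NimB2, NimB3, NimB4, NimB5, hll, bgm, Crk, Tep1, Pxn, PPO3, ItgaPS4, lz and atilla were added after their values were seen. Coordinates are those of the table (dm3). Transcript and exon lengths come from the BDGP6 annotation, and the length correction used a loess curve (span 0.5) on 7220 genes. Subtracting this curve also removed the overall level of each library. Strand was not used, so values of overlapping genes (crq, Hml) are uncertain. No sequence was used here.

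Alternatives were pseudocounts of 0.1 and 5, quantile normalization, median centring, length correction, all genes above 0, a mean of at least 5 FPKM, only the 4 libraries compared, no intensity trend, transcript rows, an unadjusted p, and each library left out. For transcript rows, the rows were fitted without summing, and each gene was read from its row with the highest mean FPKM.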

Additional observations from a re-analysis of the deposited data

How the results depend on the processing

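The count of genes called for PARP1 KD against control was 0 to 1 with a library left out (1 without control 2). For PJ34 against control it was 0, and 1 with a pseudocount of 5, quantile normalization, median centring or length correction, 5 by unadjusted p, and 0 to 6 with a library left out. For PARP1 KD against PJ34 it was 1, and 0 with a pseudocount of 0.1, all genes above 0, a mean of at least 5 FPKM, no intensity trend or transcript rows, 2 with quantile normalization, 3 with length correction or by unadjusted p, and 0 to 5 with a library left out. The counts over all genes in those 3 comparisons were 0 to 72, 5 to 5106 and 1 to 4222 over the alternatives.

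Signs reversed as follows, and no reversed value was called. A value by transcript rows is that of 1 row of the gene, so its sign is not a reversal of the summed level. For PARP1 KD against control, median centring gave srp 0.10 and Dscam1 0.17, length correction srp 0.31, ush 0.18, eater 0.12 and Dscam1 0.52, quantile normalization Dscam1 0.0785, a pseudocount of 5 Sr-CI -0.00603, and transcript rows srp 1.20, crq 0.0791 and Dscam1 0.22. Leaving out a library gave ranges of -0.61 to 0.0389 for srp, -1.23 to 0.30 for ush, -1.54 to 0.68 for eater, -0.40 to 0.45 for Sr-CI and -1.10 to 3.94 for He. For PJ34 against control, crq was 0.19 with median centring and 0.15 with length correction, and He ranged from -1.15 to 3.89 with a library left out. For PARP1 KD against PJ34, He was -0.24 with quantile normalization and -0.70 with median centring, crq was 1.35 and Pvr -4.18 by transcript rows, and leaving out a library gave -0.94 to 0.52 for crq, -0.44 to 0.54 for He and -0.18 to 2.12 for Pvr. Apart from the length correction and the single controls, the causes were not tested.

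No paired analysis was possible because the treated columns carry no number that ties them to a sample of another group. With 2 libraries per group the SE of these log2 differences was 0.54 to 1.25, which limits the size of change that could be called.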
